A study of Rattus norvegicus with 6 samples.

Results

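Transcripts of the heart's glutathione, thioredoxin and antioxidant enzymes were compared between rats given doxorubicin and rats given saline. The enzymes were chosen by gene name alone: symbols starting with Gst, Txn, or Gpx or Prdx followed by a digit, together with Sod1, Sod2, Sod3, Cat, Gclc, Gclm, Gsr, Gss, Srxn1, Nfe2l2 and Keap1. This gave 66 of the 17487 gene symbols in the count table. The rule uses no measured value, but it was set with earlier results of these data known. The hearts came from 6 adult male Wistar rats, an outbred laboratory strain, with 1 mRNA library per animal. In the doxorubicin group, 3 rats had been injected in the tail vein once a week for 4 weeks with doxorubicin hydrochloride at 3.75 mg/kg, and in the control group 3 rats had been injected in the same way with 0.9% saline. Doxorubicin is an anthracycline chemotherapy drug whose use is limited by damage to the heart. The labels gave no part of the heart and no interval between the last injection and collection, and whole tissue was measured, with its mixture of cells.

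Doxorubicin can take up single electrons from reductases and pass them to oxygen, which forms superoxide. Superoxide dismutases turn superoxide into hydrogen peroxide, and catalase, glutathione peroxidases and peroxiredoxins remove the peroxide. Glutathione peroxidases draw their electrons from the tripeptide glutathione, which glutathione reductase restores, while peroxiredoxins draw theirs from thioredoxin, which thioredoxin reductase restores. Glutathione S-transferases join glutathione to reactive compounds. The transcription factor Nrf2, encoded by Nfe2l2 and held at low levels by Keap1, activates many of these genes through a DNA sequence called the antioxidant response element.

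The libraries held 2219685 to 3508282 counts. Levels are given as CPM, counts relative to library size after scaling by the trimmed mean of M-values, a within-gene scale that is not corrected for gene length, so levels are compared between libraries and not between genes. A count of 0 allows a level of up to 3 counts, or 0.852 to 1.33 CPM over the libraries. The 11 cardiomyocyte markers found in the table summed to 135700 to 157500 CPM in the controls and 111300 to 125800 CPM after doxorubicin, without overlap. Of these 11, 8 had log2 fold changes below 0 and 3 above, with a median of -0.14 against 0.02 over all symbols. At an unadjusted edgeR p under 0.05, 4 (36.4%) were lower and 0 higher, against 8.1% of all symbols. The smallest edgeR p-value among them, adjusted over all symbols, was 0.044, for a marker that was lower. In whole tissue, fewer cells of a type and less RNA per cell cannot be told apart. Macrophage markers (13, with Marco at 0) were higher after treatment, at 274 to 289 CPM in the controls and 327 to 541 CPM after doxorubicin. The 8 adipocyte markers (Cidec, Retn and Ucp1 at 0) had a lower sum, at 822 to 1088 and 657 to 762 CPM. Only 2 adipocyte markers were tested, with opposite log2 fold changes of -0.44 and, for Cfd, 0.63. Cfd had 169 counts over all libraries, and the 6 untested markers were too low to test. The lower sum therefore rests almost wholly on the 1 other tested marker. The 8 neutrophil markers, each too low to test, summed to 4.58, 1.33 and 3.41 CPM in controls 1, 2 and 3. In treated hearts 1, 2 and 3 they summed to 5.14, 15.9 and 25.9 CPM. These groups did not overlap, but control heart 1 and doxorubicin heart 1 lay closer together than the 0.852 to 1.33 CPM that 3 counts make. Atrial markers summed to 831, 512 and 307 CPM in the controls and to 3453, 427 and 1165 CPM in the treated hearts, so that doxorubicin heart 1 stood far above the rest. The atrial markers did not move together: of 4 tested, 2 had log2 fold changes below 0 and 2 above, from -3.73 to 2.18. The part of these cell types in the differences of single enzymes was not tested.

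Members differed in both directions, with a median log2 fold change near 0. Gsta1, Gstz1 and Gstm1, which encode glutathione S-transferases, were 1.73, 1.67 and 1.55 times as high in doxorubicin as in control hearts. Txnrd2, the mitochondrial thioredoxin reductase, was 1.55 times lower, and Gpx3, the secreted glutathione peroxidase, 1.46 times lower. Nfe2l2 itself was 1.38 times as high. The edgeR p-values of these genes, adjusted over all symbols tested, ran from 0.249 to 0.594, so none was under 0.05. For superoxide dismutases, catalase and the enzymes of glutathione synthesis, no member had an unadjusted p under 0.05 and all groups overlapped.

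The low-count filter left 50 of the 66 members for testing among 9205 symbols. With edgeR's quasi-likelihood test and Benjamini-Hochberg adjustment over all symbols, 0 of the 50 had an adjusted p-value under 0.05, against 0.0543% of all symbols tested. DESeq2 and limma voom also called 0 members. At an unadjusted p under 0.05 in edgeR there were 7 members, 14.0% of the 50, against 8.1% of all symbols. Of these, 4 were higher in doxorubicin (Gsta1, Gstz1, Gstm1 and Nfe2l2) and 3 lower (Txnrd2, Gpx3 and Gsto1), where the shares over all symbols were 4.0% higher and 4.11% lower. The groups did not overlap for 13 members, 26.0% of the 50, against 13.4% of all symbols; 5 of the 13 were higher and 8 lower, where 6.39% of all symbols were separate and higher and 7.06% separate and lower. The median log2 fold change was -0.03 over the members and 0.02 over all symbols, and 28 of the 50 members, 56.0%, were below 0, against 47.9% of all symbols.

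**Figure D1:**
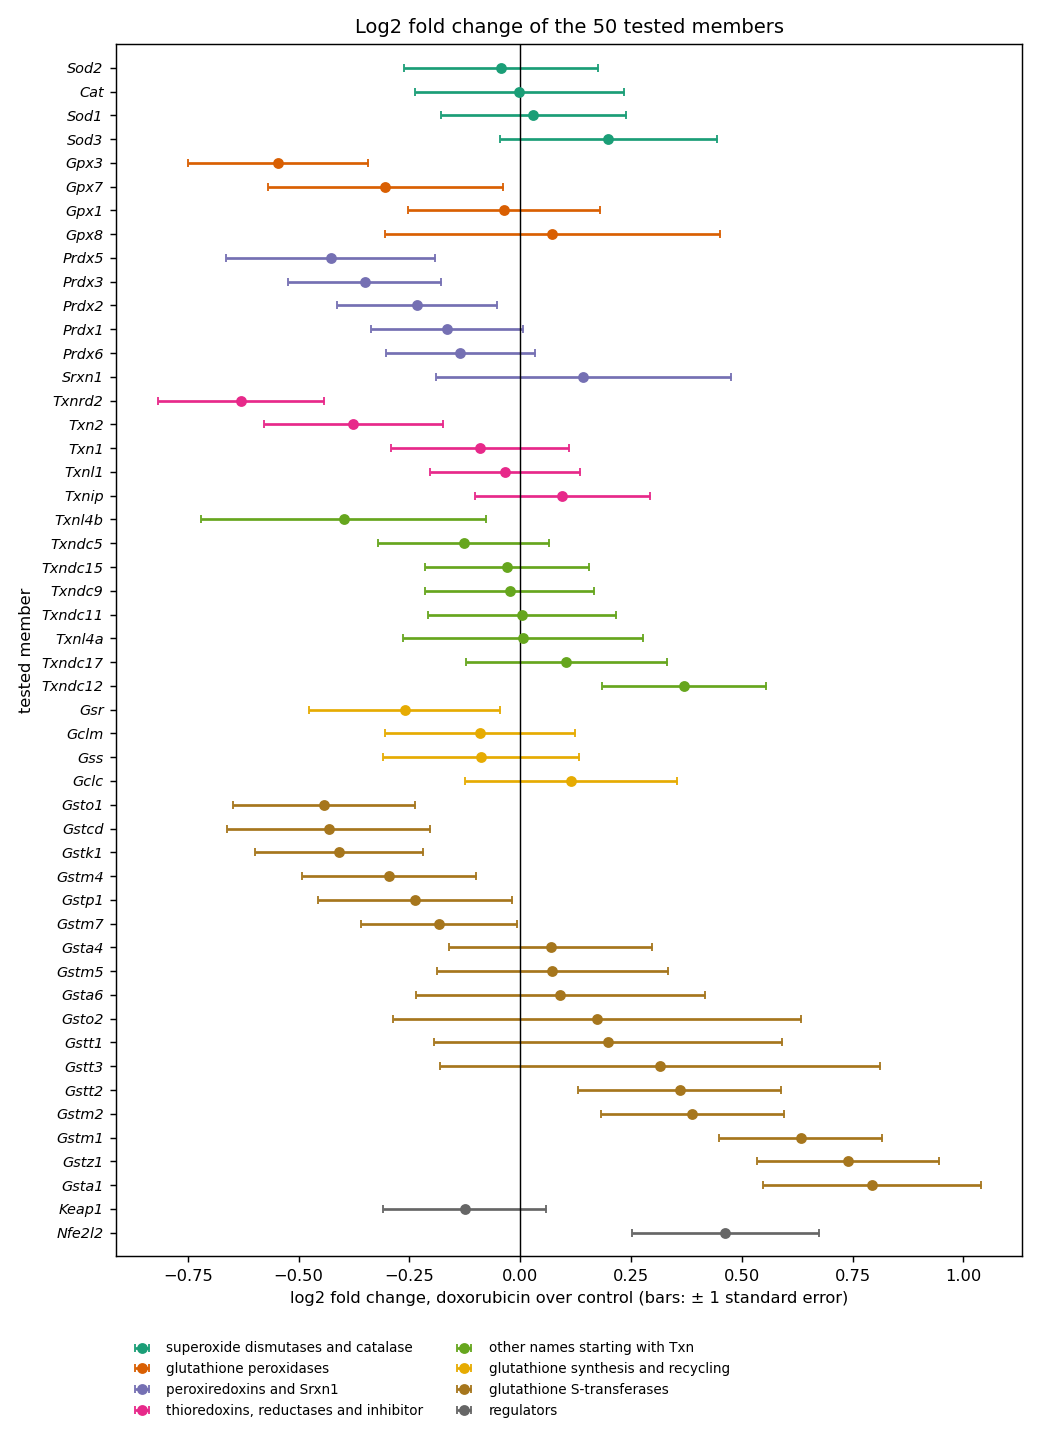
Log2 fold change of doxorubicin over control (horizontal axis) for each of the 50 tested members (vertical axis), coloured by role, with bars of 1 standard error on each side. Values run from -0.63 for Txnrd2 to 0.79 for Gsta1, and the bars of the 4 superoxide dismutases and catalase all cross 0.

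The 16 members without a test divide into 9 listed at 0 in all 6 libraries and 7 with at most 9 counts in any library. Listed at 0 were Txnrd1 (cytosolic thioredoxin reductase), Txnrd3, Prdx4 (the peroxiredoxin of the secretory pathway), Gpx2, Gpx6, Gsta3, Gstm6l, Txndc2 and Txndc8. Several of these, Txnrd1 above all, are known to be expressed in many tissues, so the 0 is a property of this table and is not read as absence. Txnrd1 stood on 4 rows of the table. Of the 599 symbols on several rows, 48.6% were listed at 0 throughout, against 24.5% of the 16888 symbols on a single row, and the 5 members on several rows (Gpx4, Gsta3, Txndc2, Txnrd1 and Txnrd3) were all among the untested. Gpx4, which reduces lipid peroxides in membranes and guards against ferroptosis, was read 9, 6 and 9 times in controls 1, 2 and 3 and 9, 7 and 8 times in treated hearts 1, 2 and 3. No difference in Gpx4 was detectable at these counts. The remaining untested members were Gpx5, Gsta2, Gsta5, Gstm3l, Gstm6 and Gstt4, each with 0 to 4 counts in a library.

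Nfe2l2, the gene of the transcription factor Nrf2, was at 51.9, 74.6 and 86.3 CPM in control hearts 1, 2 and 3 and at 99.2, 86.4 and 109 CPM after doxorubicin 1, 2 and 3. The groups did not overlap, but control heart 3 and doxorubicin heart 2 were at nearly the same level. The log2 fold change was 0.46 (SE 0.21, edgeR adjusted p 0.594). Control heart 1 was the lowest of the 6, and without it the log2 fold change was 0.29 at an unadjusted edgeR p of 0.139. Keap1, which marks Nrf2 for degradation, was at 108, 77.3 and 95.4 CPM in the controls and 83.1, 86.7 and 87.5 CPM after doxorubicin. The doxorubicin values of Keap1 lay inside the control range (log2 fold change -0.12, SE 0.18).

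The core of the antioxidant response element, TGACNNNGC, was searched on both strands in RefSeq promoter windows of assembly GRCr8, 250 bases before to 50 bases after each gene's start. Such a window was found by symbol for 57 of the 66 members. These 57 have 63 windows, and the core was present in 20 windows, 31.7%, each of another symbol, against 12.1% of all 33469 windows of that table. Among the 4 members higher at an unadjusted p under 0.05 it was present for Gsta1, Gstz1 and Nfe2l2 but not for Gstm1, and it was found for none of the 3 lower ones. It was also present for 12 of 36 other tested members with a window, among them Gclm, Prdx1 and Gstp1, whose levels overlapped or nearly met between the groups. The 15 tested members with the core had a median log2 fold change of -0.09, and 6 of them were above 0; the median of those without it was -0.03. The matches are shown for the 3 higher members and for those 3 comparison genes, 5′ to 3′ on the gene's strand, with the core or its reverse complement in capitals.
Gstz1 (GRCr8 chr6:112525356-112525408, plus strand): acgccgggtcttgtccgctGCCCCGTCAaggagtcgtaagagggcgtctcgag
Gsta1 (GRCr8 chr9:31216484-31216512, minus strand): aactcaggcaTGACTTTGCatttttcttc
Nfe2l2 (GRCr8 chr3:81028950-81028971, minus strand): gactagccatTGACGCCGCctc
Gclm (GRCr8 chr2:213031938-213031996, plus strand): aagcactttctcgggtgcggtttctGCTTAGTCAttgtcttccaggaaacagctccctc
Prdx1 (GRCr8 chr5:135383746-135383804, plus strand): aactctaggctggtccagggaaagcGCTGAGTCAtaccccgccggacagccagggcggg
Gstp1 (GRCr8 chr1:210769733-210769791, minus strand): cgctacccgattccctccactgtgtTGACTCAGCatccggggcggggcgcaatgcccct
In the direction printed, the core began 231, 172, 135 and 61 bases before the start for Gstz1, Gclm, Prdx1 and Gstp1, and at base 31 and base 39 after it for Gsta1 and Nfe2l2. A match is a run of letters and not a measured binding site, and the counts above are a description. The authors' counts were made on the build mRatBN7.2, so these coordinates belong to the promoter table only.

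Among the superoxide dismutases and catalase 0 of 4 members had an unadjusted p under 0.05, against 8.1% of all symbols. No pair of groups was free of overlap, against 13.4% of all symbols. Sod1, the cytosolic copper-zinc enzyme, was at 636, 497 and 519 CPM in the controls and 702, 562 and 423 CPM after doxorubicin. Sod2, the manganese enzyme of the mitochondrial matrix, was at 696, 885 and 632 CPM in the controls and 933, 560 and 653 CPM after doxorubicin. For both, doxorubicin heart 1 was the highest of the 6 and the other treated hearts lay within or below the control range. Their log2 fold changes were 0.03 (SE 0.21) for Sod1 and -0.04 (SE 0.22) for Sod2. Scaling by library size alone turned the sign of Sod2 to 0.035, and the sign of each changed when single libraries were left out. Cat, which breaks down hydrogen peroxide mainly in peroxisomes, was at 197, 404 and 324 CPM in the controls and 331, 328 and 264 CPM after doxorubicin. Control hearts 1 and 2 were the lowest and the highest of the 6, and the log2 fold change was -0.0021 (SE 0.24), with a sign that turned in 8 of the alternative fits that kept all libraries. Sod3, the extracellular dismutase, was at 138, 129 and 160 CPM in the controls and 139, 239 and 113 CPM after doxorubicin. Only doxorubicin heart 2 stood above the control range, and without it the log2 fold change of 0.20 (SE 0.25) became -0.17.

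Of the 4 glutathione peroxidases tested, 1 had an unadjusted p under 0.05 and was lower. Over all symbols the share under that p was 8.1%, with 4.11% lower. Gpx3, secreted into plasma and the extracellular space, was at 584, 435 and 436 CPM in control hearts 1, 2 and 3 and at 264, 392 and 340 CPM after doxorubicin 1, 2 and 3. All treated hearts were below all controls, with the widest gap between control heart 1 and doxorubicin heart 1. The means were 485 ± 85.8 and 332 ± 64.4 CPM (SD, n = 3), for a log2 fold change of -0.55 (SE 0.20, edgeR adjusted p 0.477). Without doxorubicin heart 1 the log2 fold change was -0.40 at an unadjusted edgeR p of 0.0881. Gpx7, an enzyme of the endoplasmic reticulum, was at 21.0, 15.5 and 16.5 CPM in the controls and 13.5, 14.7 and 14.7 CPM after doxorubicin, on 35 to 58 counts. Its groups were separate by a narrow margin, and its log2 fold change was -0.30 (SE 0.27). Gpx8, of the same compartment, had only 11 to 47 counts per library and a log2 fold change of 0.07 (SE 0.38).

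Gpx1, the main cytosolic glutathione peroxidase, was at 1788, 1195 and 1264 CPM in the controls and 1057, 1508 and 1575 CPM after doxorubicin. The groups overlapped fully, with control heart 1 highest and doxorubicin heart 1 lowest (log2 fold change -0.04, SE 0.22). The sign of that value turned with library size scaling (0.066) and without either of these hearts. Red blood cell precursors are known to be rich in Gpx1 and Prdx2 transcripts. The erythroid and platelet markers, 13 of 16 found in the table, summed to 7521, 2060 and 2581 CPM in the controls and to 716, 2379 and 2754 CPM after doxorubicin, with Alas2 at 0 throughout. All 8 tested markers of this list had log2 fold changes below 0 (median -1.10), 1 of them at an unadjusted edgeR p under 0.05. Control heart 1 was thus the highest and doxorubicin heart 1 the lowest for both the marker sum and Gpx1. Prdx2 was also highest in control heart 1 (857 CPM), but lowest in doxorubicin heart 3 (587 CPM). The part of blood in the levels of Gpx1 and Prdx2 was not tested.

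The 5 peroxiredoxins tested all had log2 fold changes below 0, where 47.9% of all symbols were. The values ran from -0.43 to -0.13, with a median of -0.23. At an unadjusted p under 0.05 there were 0 of the 5, against 8.1% of all symbols. Prdx3, the peroxiredoxin of the mitochondrial matrix, was at 705, 675 and 610 CPM in the controls and 495, 564 and 502 CPM after doxorubicin. All treated hearts lay below all controls, at 520 ± 38.4 against 663 ± 48.4 CPM (SD, n = 3). The log2 fold change was -0.35 (SE 0.17, edgeR adjusted p 0.624). Prdx5, found in mitochondria and peroxisomes, was at 610, 320 and 386 CPM in the controls and 372, 340 and 267 CPM after doxorubicin. The groups overlapped, and the log2 fold change of -0.43 (SE 0.24) was -0.11 without control heart 1.

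Prdx1 and Prdx6, cytosolic peroxiredoxins, had groups that were separate but close. Prdx1 was at 285, 241 and 242 CPM in the controls and 220, 240 and 225 CPM after doxorubicin, for a log2 fold change of -0.16 (SE 0.17). Prdx6 was at 468, 459 and 439 CPM in the controls and 389, 418 and 437 CPM after doxorubicin, for a log2 fold change of -0.13 (SE 0.17). In both genes the nearest control and treated hearts differed by less than the spread within either group. Prdx2 was at 857, 664 and 690 CPM in the controls and 622, 673 and 587 CPM after doxorubicin, with overlap and a log2 fold change of -0.23 (SE 0.18). Srxn1, sulfiredoxin, which restores over-oxidised peroxiredoxins and is a known Nrf2 target, was at 8.40, 12.0 and 10.5 CPM in the controls and 14.8, 8.11 and 11.2 CPM after doxorubicin. The treated hearts of Srxn1 spanned the control range on 22 to 46 counts (log2 fold change 0.14, SE 0.33).

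In the thioredoxin system the mitochondrial reductase stood apart from the other members tested. Txnrd2, a selenoprotein that keeps mitochondrial thioredoxin reduced, was at 127, 110 and 123 CPM in control hearts 1, 2 and 3 and at 68.7, 93.9 and 70.4 CPM after doxorubicin 1, 2 and 3. Every treated heart was below every control, and doxorubicin heart 2 was the nearest to them. The means were 120 ± 9.29 and 77.7 ± 14.1 CPM (SD, n = 3), for a log2 fold change of -0.63 (SE 0.19, edgeR adjusted p 0.312). The unadjusted p was under 0.05 in each of the 19 alternative fits. Txn2, the mitochondrial thioredoxin that Txnrd2 reduces, was at 525, 318 and 435 CPM in the controls and 306, 330 and 349 CPM after doxorubicin. Control heart 2 fell among the treated hearts, and the log2 fold change of -0.38 (SE 0.20) was -0.19 without control heart 1.

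Txn1, the cytosolic thioredoxin, was at 163, 118 and 106 CPM in the controls and 134, 122 and 107 CPM after doxorubicin. These ranges overlapped, and the log2 fold change of -0.09 (SE 0.20) turned to 0.0065 with library size scaling. Txnip, which binds and inhibits thioredoxin, was at 538, 712 and 727 CPM in the controls and 763, 778 and 571 CPM after doxorubicin. Doxorubicin hearts 1 and 2 were above all controls but heart 3 was not (log2 fold change 0.09, SE 0.20). Txnl1, a cytosolic thioredoxin-like protein, had a log2 fold change of -0.03 (SE 0.17). Among the other 8 tested names starting with Txn, which include folding enzymes of the endoplasmic reticulum and the splicing factor Txnl4a, 0 had an unadjusted p under 0.05, and the log2 fold changes ran from -0.40 for Txnl4b to 0.37 for Txndc12. Txndc12, an oxidoreductase of the endoplasmic reticulum, was at 77.9, 64.4 and 73.5 CPM in the controls and 89.9, 82.7 and 106 CPM after doxorubicin. Its groups did not overlap (log2 fold change 0.37, SE 0.18, edgeR adjusted p 0.631).

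**Figure D2:**
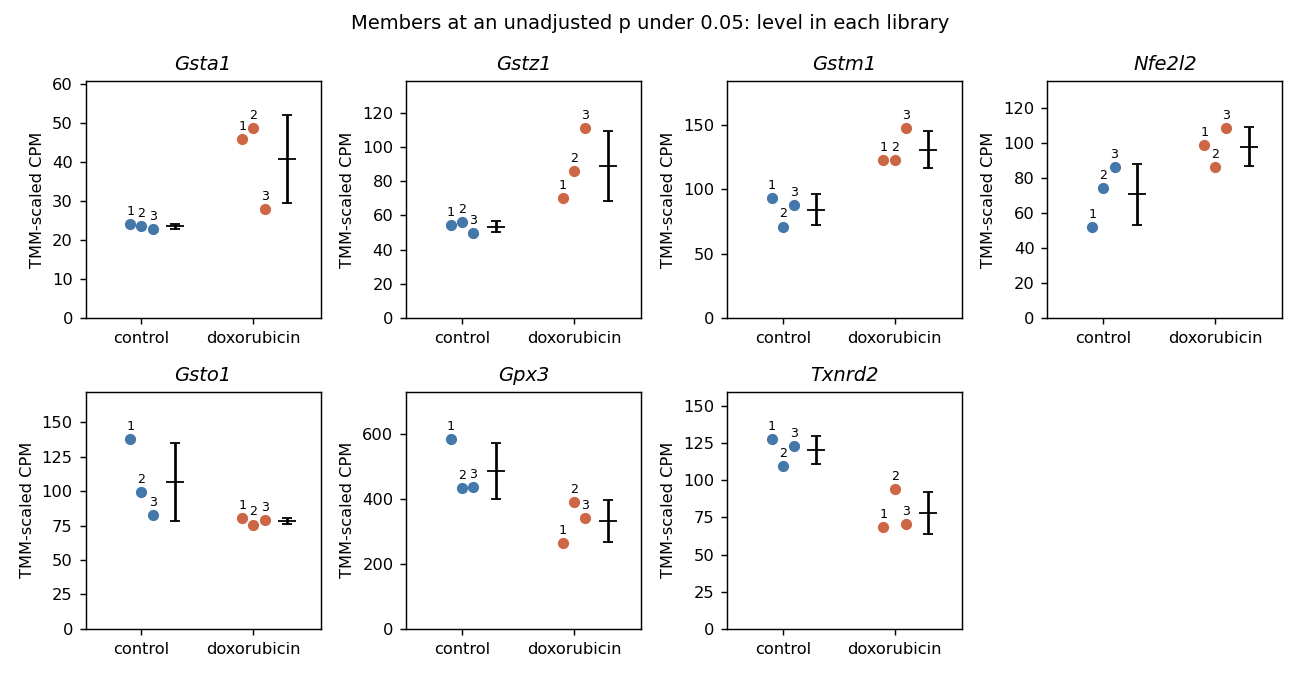
Level in each library (vertical axis, TMM-scaled CPM from 0) for the 7 members at an unadjusted p under 0.05, with the replicate number above each point and the mean and SD (n = 3) beside each group. The doxorubicin points lie on one side of all control points in every panel, closest for Nfe2l2 and Gsto1.

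A list of 6 members known in mitochondria (Sod2, Prdx3, Prdx5, Txn2, Txnrd2 and Gstk1), drawn up with earlier results known, had all its values below 0, where 47.9% of all symbols were. Its median log2 fold change was -0.39 against 0.02 over all symbols. The value nearest 0 was that of Sod2 (-0.04), whose sign turned in 5 of the 19 alternative fits. The list is not complete: Gstz1 (0.74), Gsta4 (0.07) and Gpx1 (-0.04) are also known in mitochondria and were not in it. In the list, 1 of 6 had an unadjusted p under 0.05 (Txnrd2), against 8.1% of all symbols, and 2 of 6 had separate groups (Txnrd2 and Prdx3), against 13.4%. The median depended on the controls: it was -0.25 without control heart 1 and -0.53 without control heart 2. Gstk1, a transferase of mitochondria and peroxisomes, was at 105, 78.2 and 106 CPM in the controls and 64.8, 74.3 and 79.0 CPM after doxorubicin. Its levels are outside the rule for printed members and were added after they were seen. Control heart 2 lay just under doxorubicin heart 3 (log2 fold change -0.41, SE 0.19). The sum of the cardiomyocyte markers was also lower in every treated heart (113100, 125800 and 111300 CPM against 157500, 135700 and 142700 CPM), although 3 of the 11 markers had log2 fold changes above 0. The part of cardiomyocytes in the values of these members was not tested.

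Glutathione synthesis and recycling had overlapping groups in each of its 4 members, where 13.4% of all symbols had separate groups. At an unadjusted p under 0.05 there were 0 of the 4, against 8.1% of all symbols. Gclc, the catalytic subunit of the enzyme that limits glutathione synthesis, was at 22.9, 31.5 and 30.7 CPM in the controls and 32.4, 24.0 and 35.7 CPM after doxorubicin. Its modifier subunit Gclm was at 32.5, 32.4 and 34.6 CPM in the controls and 29.5, 27.5 and 36.5 CPM after doxorubicin. In both, a treated heart was the highest of the 6, and their log2 fold changes were 0.11 (SE 0.24) and -0.09 (SE 0.21). Gss, glutathione synthetase, was at 27.1, 26.2 and 26.4 CPM in the controls and 22.8, 27.5 and 24.8 CPM after doxorubicin (log2 fold change -0.09, SE 0.22). Gsr, glutathione reductase, was at 40.9, 36.4 and 44.0 CPM in the controls and 28.2, 32.8 and 40.4 CPM after doxorubicin. Doxorubicin hearts 1 and 2 were below all controls for Gsr, while heart 3 lay within their range (log2 fold change -0.26, SE 0.22).

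Of 24 glutathione S-transferases 17 were tested, and 3 were higher and 1 lower at an unadjusted p under 0.05, where 4.0% of all symbols were higher and 4.11% lower; the family's median log2 fold change was 0.09. Gsta1, an alpha-class enzyme, was at 24.1, 23.6 and 23.0 CPM in control hearts 1, 2 and 3 and at 45.9, 48.7 and 28.0 CPM after doxorubicin 1, 2 and 3. The controls were within a narrow band, doxorubicin hearts 1 and 2 were about double that level, and doxorubicin heart 3 was only a little above it. The means were 23.5 ± 0.527 and 40.9 ± 11.2 CPM (SD, n = 3), from 53 to 156 counts per library, a log2 fold change of 0.79 (SE 0.25, edgeR adjusted p 0.353). The other tested alpha-class members, Gsta4 and Gsta6, differed by log2 values of 0.07 (SE 0.23) and 0.09 (SE 0.33), with overlapping groups.

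Gstz1, the zeta-class enzyme, also works in tyrosine breakdown as maleylacetoacetate isomerase. Its level was 54.6, 56.0 and 49.7 CPM in control hearts 1, 2 and 3 and 70.3, 86.1 and 111 CPM after doxorubicin 1, 2 and 3. Even the lowest treated heart was clear of the controls. The means were 53.4 ± 3.30 and 89.1 ± 20.4 CPM (SD, n = 3), for a log2 fold change of 0.74 (SE 0.21, edgeR adjusted p 0.249), and Gstz1 ranked 107 of 9205 symbols by p. Gsto1, the omega-class enzyme that also reduces dehydroascorbate, was at 138, 99.5 and 82.6 CPM in the controls and 80.2, 75.8 and 79.0 CPM after doxorubicin. The treated hearts were alike and below the controls, of which heart 3 was close to them. The log2 fold change of -0.44 (SE 0.21, edgeR adjusted p 0.612) was -0.21 without control heart 1, and the unadjusted p was under 0.05 in only 4 of the 19 alternative fits.

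The mu class was divided. Gstm1 was at 93.6, 71.1 and 88.0 CPM in control hearts 1, 2 and 3 and at 123, 123 and 147 CPM after doxorubicin 1, 2 and 3. All treated hearts were above all controls, at 131 ± 14.1 against 84.2 ± 11.7 CPM (SD, n = 3), for a log2 fold change of 0.63 (SE 0.18, edgeR adjusted p 0.288). Gstm2 was at 658, 406 and 528 CPM in the controls and 797, 652 and 636 CPM after doxorubicin. Control heart 1 fell between the treated hearts, and the log2 fold change of 0.39 (SE 0.21) was 0.58 without it and 0.24 without control heart 2. Gstm7, at 160, 132 and 129 CPM in the controls and 114, 135 and 122 CPM after doxorubicin, had a log2 fold change of -0.18 (SE 0.18). Gstm4 was at -0.30 (SE 0.20) and Gstm5 at 0.07 (SE 0.26) on the same log2 scale, both with overlapping groups.

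Within each library, Gstm1 and Gstm2 together made up 76.1%, 69.8% and 75.0% of mu-class counts in control hearts 1, 2 and 3 and 83.9%, 79.5% and 80.2% in doxorubicin hearts 1, 2 and 3. The means were 73.6% ± 3.35 and 81.2% ± 2.39 (SD, n = 3), and the groups did not overlap; the share was chosen after the levels were seen and has no test. Counting error was smaller than this gap: the Wilson 95% interval reached up to 77.7% in the highest control and down to 78.0% in the lowest doxorubicin library. On assembly GRCr8 the 9 mu-class genes lie side by side on chromosome 2, with Gstm2, Gstm1 and Gstm4 next to each other. They are close copies of one another, as are the alpha-class genes, and how reads shared between copies were counted was not given in the sources used here, so the division within these classes is uncertain.

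Gstp1, the pi-class enzyme, was at 202, 139 and 117 CPM in the controls and 127, 151 and 110 CPM after doxorubicin. Only control heart 1 was outside the range of the others, and the log2 fold change of -0.24 (SE 0.22) was 0.022 without it. Gstcd, named for a transferase-like domain, was at 24.4, 26.2 and 27.3 CPM in the controls and 19.6, 18.7 and 19.4 CPM after doxorubicin. Its groups were separate with little spread in either, on 59 to 96 counts per library, but the edgeR test did not pass (log2 fold change -0.43, SE 0.23, adjusted p 0.666). The theta-class members Gstt1, Gstt2 and Gstt3 had log2 fold changes of 0.20, 0.36 and 0.32, all with overlapping groups, and Gsto2 of 0.17 on 8 to 19 counts.

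**Figure D3:**
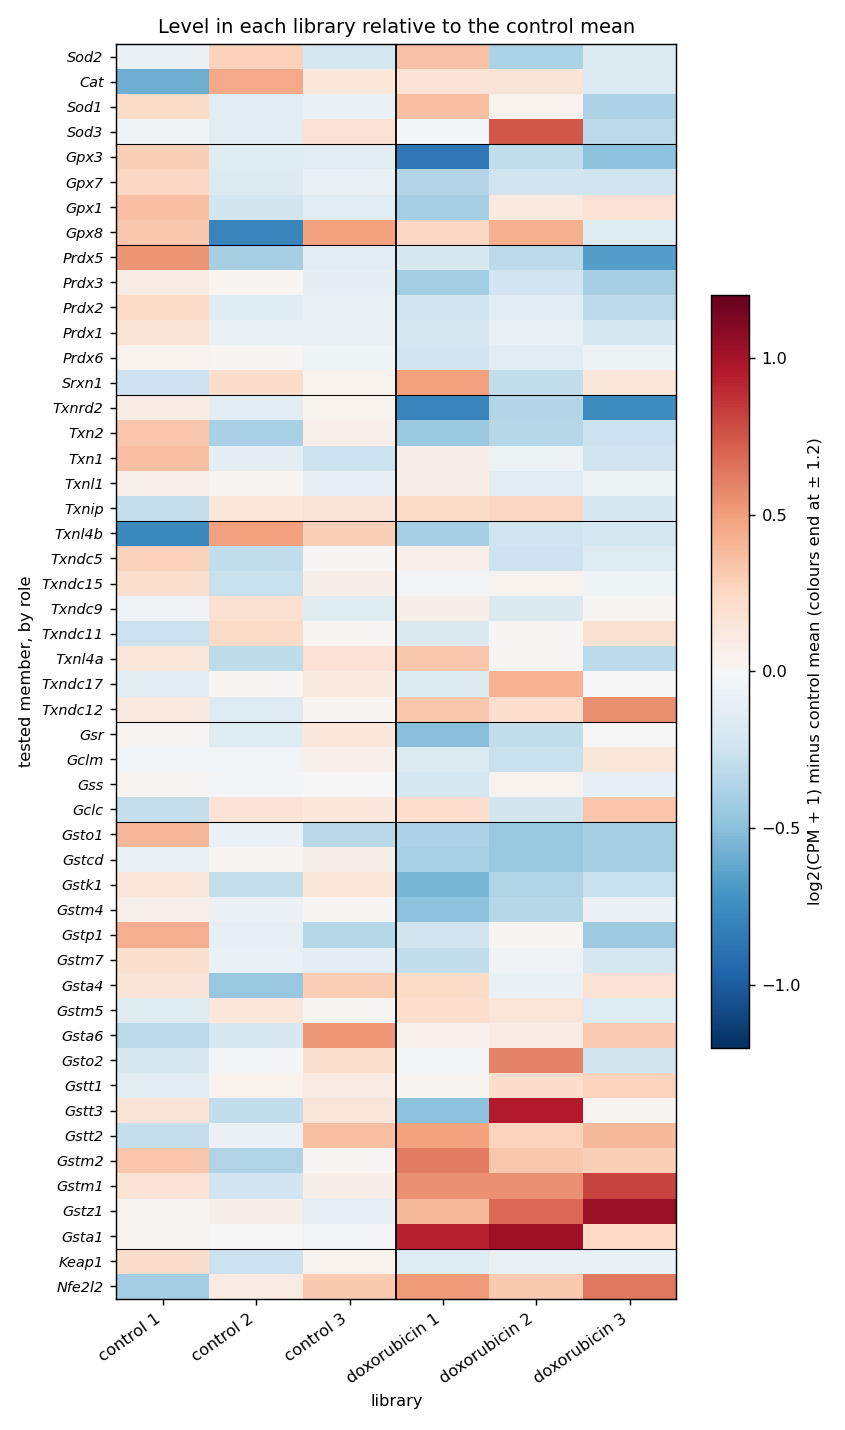
Colour gives log2(CPM + 1) minus the control mean for each tested member (rows, in blocks by role) in each library (columns, with a line between control and doxorubicin). Gsta1, Gstz1 and Gstm1 are red and Txnrd2 and Gpx3 blue in all 3 doxorubicin libraries, while control 1 differs from the other controls in many rows.

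The median coefficient of variation over the tested members was 16.4% in control and 12.5% in doxorubicin hearts, against 19.5% and 18.3% over all symbols, which were not matched for level. Control heart 1 was the highest of the 6 for 18 of the 50 members, 36.0%, against 26.7% of all symbols. Doxorubicin heart 1 was the lowest for 15 members, 30.0%, against 17.4% of all symbols. Summed over the family, the peroxiredoxins and Srxn1 were at 2371 to 2934 CPM in the controls and 2029 to 2243 CPM after doxorubicin. The glutathione S-transferases were at 1186 to 1628 CPM and 1515 to 1617 CPM, with overlap, in these sums.

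**Figure D4:**
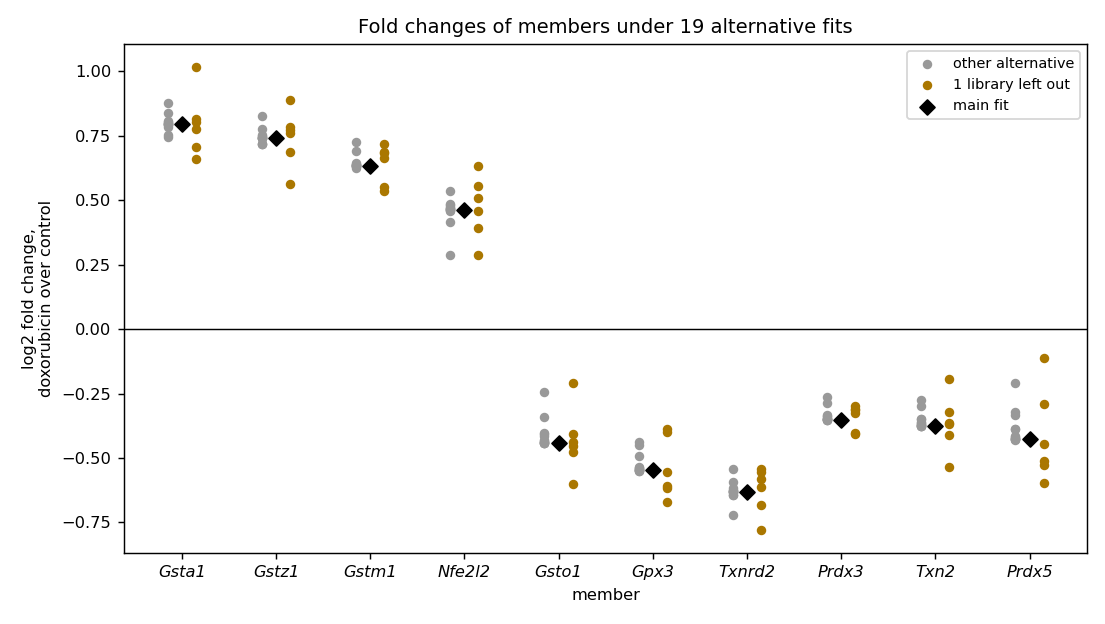
Log2 fold change (vertical axis) of 10 members under the main fit (black diamonds), the 13 alternatives that keep all libraries (grey) and the 6 fits that each leave out 1 library (brown). All points of a member lie on one side of 0, and Gsta1, Gstz1, Gstm1 and Txnrd2 stay beyond 0.5 in either direction.

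Genes around these enzymes were counted from lists of known pathway genes. Over all symbols, 8.1% had an unadjusted p under 0.05, 4.0% higher and 4.11% lower. Of the genes that supply NADPH, the electron source of both reductases, 16 were tested. At an unadjusted p under 0.05, 2 (12.5%) were lower and 0 higher, and the median log2 fold change was -0.08. Me1 and Me3, the cytosolic and mitochondrial malic enzymes, were the 2 lower ones. Me3 was at 253, 239 and 222 CPM in the controls and 183, 192 and 173 CPM after doxorubicin, and Me1 at 260, 286 and 199 CPM against 177, 182 and 198 CPM. The treated hearts were below the controls for both, by a wide margin for Me3 and by almost nothing for Me1. In the list of glutathione precursors, turnover and transport, 3 of 15 were lower and 0 higher, with a median of -0.17. These were Slc25a10 (log2 fold change -0.66, SE 0.23), a mitochondrial dicarboxylate carrier, Slc25a39 (-0.51, SE 0.23), which brings glutathione into mitochondria, and Ggt5 (-0.63, SE 0.28), which cleaves glutathione outside cells. Slc25a39 had overlapping groups, as did Ggt5.

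Among 19 tested glutaredoxins and other glutathione-dependent enzymes 2 were higher and 2 lower at an unadjusted p under 0.05, together 21.1%. The 3 smallest p-values belonged to Clic2 (log2 fold change 0.72, SE 0.23), Ptges2 (-0.48, SE 0.20) and Mgst3 (-0.48, SE 0.21), a chloride channel family protein with a transferase-like fold, a prostaglandin synthase and a microsomal transferase. Known Nrf2 targets outside the member families gave 0 higher and 2 lower of 23, Fth1 and Me1, with a median of -0.04. These made up 8.7% of the list, near the 8.1% of all symbols. Fth1, the ferritin heavy chain, was at 4463, 2826 and 2839 CPM in the controls and 2162, 2891 and 2125 CPM after doxorubicin, with overlap (log2 fold change -0.50, SE 0.22). Nqo1, a quinone reductase often used as an Nrf2 readout, was at 36.0 ± 3.45 CPM in the controls and 41.3 ± 4.22 CPM after doxorubicin (SD, n = 3) with overlapping groups (log2 fold change 0.20, SE 0.20). Hmox1, heme oxygenase, was at 71.1 ± 36.2 and 59.9 ± 14.1 CPM, also with overlap. Nqo1 and Hmox1 were named for their common use, after their values were seen.

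Of 21 tested partners and regulators of Nrf2, 1 was higher and 0 lower, a share of 4.76% against 8.1% of all symbols. The higher one was Prkcd, a protein kinase C, at 24.1, 42.7 and 34.1 CPM in the controls and 69.0, 54.3 and 47.8 CPM after doxorubicin (log2 fold change 0.77, SE 0.24, edgeR adjusted p 0.364). The other selenoproteins, their synthesis factors and the methionine sulfoxide reductases gave 0 of 21 in either direction (median -0.06). Among 14 tested oxidant sources 1 (7.14%) was higher and 0 lower. This was Xdh, xanthine dehydrogenase, whose oxidase form makes superoxide, at 65.7, 112 and 111 CPM in the controls and 145, 172 and 165 CPM after doxorubicin. All treated hearts were above all controls (log2 fold change 0.74, SE 0.21, edgeR adjusted p 0.279). Xdh is also expressed in endothelial cells, whose 12 markers summed to 1985 to 2187 CPM in the controls and 1601 to 2176 CPM after doxorubicin. Of these markers, 7 had log2 fold changes below 0 and 5 above. The part of endothelial cells in the level of Xdh was not tested.

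The last list, of other antioxidant and thiol proteins, held 26 tested genes. At an unadjusted p under 0.05, 4 (15.4%) were lower and 0 higher, and the median was -0.16. Ucp3, an uncoupling protein of the inner mitochondrial membrane, fell by 2.73 on the log2 scale (SE 0.35, edgeR adjusted p 0.0194) and was the only gene of these lists past the adjusted threshold. Mt1, a metallothionein, was at 44.3, 45.8 and 57.4 CPM in the controls and 27.9, 39.6 and 25.6 CPM after doxorubicin, and Tst, a mitochondrial sulfurtransferase, at 118, 76.9 and 75.8 CPM against 57.8, 66.8 and 51.0 CPM. Both had groups that did not overlap, with log2 fold changes of -0.67 (SE 0.23) and -0.63 (SE 0.22). Against the 8.1% of all symbols, the share of genes at an unadjusted p under 0.05 ran from 0 to 21.1% over these 8 lists.

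**Figure D5:**
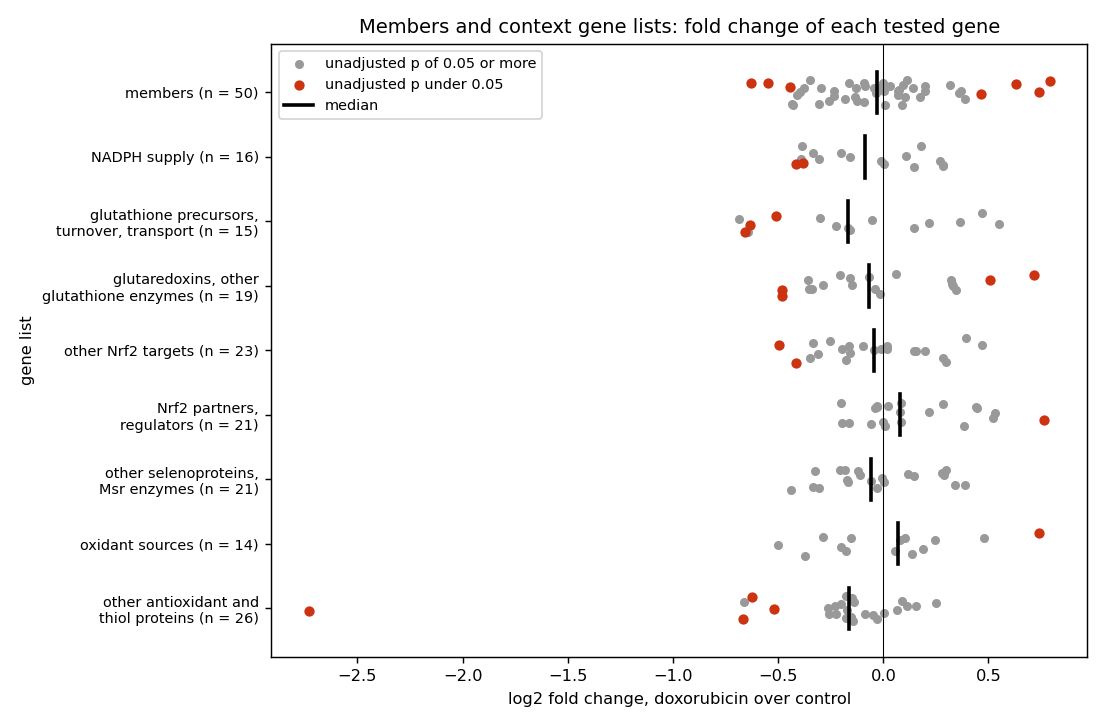
Log2 fold change of doxorubicin over control (horizontal axis) for every tested gene of the members and of the 8 context lists (vertical axis), red at an unadjusted p under 0.05, with the median as a black bar. List medians lie between -0.17 and 0.08, and the far point at the left is Ucp3.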

How the data were processed

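Heart RNA was measured in 6 libraries, 3 per group. The authors deposited raw read counts per gene row, without normalization; the submitters' processing notes list FastQC, Trimmomatic, STAR, HTSeq and the build mRatBN7.2, and versions, annotation, counting mode and strand use were not given in the sources used here. Rows of a symbol were summed (18473 rows, 17487 symbols). The whole table was fitted with edgeR 4.0.16 (R 4.3.3): TMM factors, filterByExpr (minimum count 10, total 15), robust quasi-likelihood F test on treatment, Benjamini-Hochberg adjustment over 9205 symbols, threshold 0.05. Each log2 value divided by the square root of its F gave the standard error. Labels call the libraries biological replicates, and nothing states that equal replicate numbers pair animals.

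Alternatives were other scalings and filters, separate rows, non-robust dispersion, DESeq2 1.42.0, limma 3.58.1 voom with and without quality weights, the replicate number as a block, and leaving out each library; a correction for gene span was added after the data were seen. Over the 8987 tested symbols with a known span, the log2 fold change rose with gene span (Spearman rho 0.218, and 0.0136 after the correction). Members and gene lists were chosen with earlier results of these data known. Levels are printed for a set of core enzymes, the 5 Gst symbols with the highest mean CPM, and other members at an unadjusted p under 0.05 or with separate groups (Gstk1 was added after its values were seen); from each gene list, up to 3 genes at an unadjusted p under 0.05, by smallest p. Tables, Wilson intervals and figures were made in Python 3.11.15 (pandas 2.3.3, scipy 1.17.1, matplotlib 3.10.9). Intervals and floors cover counting error only.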

Additional observations from a re-analysis of the deposited data

How the results depend on the processing

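In all 19 alternatives 0 members passed the adjusted threshold, while the count over all symbols ran from 0 to 75 against 5 (75 with DESeq2, 61 with no filter, 35 without doxorubicin library 2, 14 with quality weights, 13 with the replicate block, 1 with a mean CPM of at least 5 or non-robust dispersion, and 0 with library size only, voom, or without control library 1 or 3 or doxorubicin library 1 or 3). The replicate block gave 6 members at an unadjusted p under 0.05 against 7, where 6.59% of all symbols were under it. Same-numbered libraries did not deviate together (mean correlation -0.0751, from -0.19 to 0.02 over 3 pairs). Leaving out 1 library gave 4 to 8 members at an unadjusted p under 0.05, against 5.61% to 9.53% of all symbols. The 4 came without doxorubicin library 1, where 6.69% of all symbols were under that p. Members with separate groups numbered 14 to 21 in these fits, against 20.5% to 26.4% of all symbols. The 21 came without control library 2, where 26.4% of all symbols were separate. Fits that use the same scaled levels (DESeq2, voom, the block, non-robust dispersion, separate rows and the span correction) give no other count of separate groups. Gsta1, Gstz1, Gstm1 and Txnrd2 were under an unadjusted p of 0.05 in each of the 19, Gpx3 in 18 and Nfe2l2 in 12.

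The members' median of -0.03 was 0.0595 with library size only, where that of all symbols was 0.10, and -0.10 to -0.0060 with 1 library left out. With library size only the list medians were 0.0005 for NADPH supply, -0.074 for glutathione precursors, 0.0415 for other Nrf2 targets and 0.031 for other selenoproteins. NADPH supply was also -0.0025 with DESeq2, -0.0227 with quality weights, 0.0035 and 0.0021 with a mean CPM of at least 1 and 5, and -0.0008 with no filter; oxidant sources were at -0.0407 with a mean CPM of at least 1. With 1 library left out these medians ran from -0.13 to -0.030 (NADPH supply), -0.24 to -0.14 (precursors), -0.14 to 0.0018 (Nrf2 targets), -0.12 to 0.026 (selenoproteins) and -0.17 to 0.068 (oxidant sources). The cause was not tested.

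Of 32 named members, 21 kept their direction throughout. The sign turned with library size only for Sod2 (0.035), Cat (0.0599), Gpx1 (0.0657) and Txn1 (0.0065), with the gene span correction for Sod2 (0.0051) and Gpx1 (0.0851), and with quality weights for Gpx1 (0.0706), Txn1 (0.0889), Gclc (-0.0383) and Gstp1 (0.0108). Cat, at -0.0021, also turned with DESeq2 and median-of-ratios factors (0.0024 each), voom (0.0511), a mean CPM of at least 1 (0.0056) or 5 (0.0080), no filter (0.0026) and the replicate block (0.0455). Leaving out 1 library gave -0.16 to 0.21 for Sod1, -0.28 to 0.12 for Sod2, -0.17 to 0.42 for Sod3, -0.23 to 0.25 for Cat, -0.13 to 0.17 for Gpx1, -0.22 to 0.12 for Txn1, -0.026 to 0.23 for Txnip, -0.0115 to 0.27 for Gclc, -0.21 to 0.0041 for Gclm, -0.083 to 0.34 for Srxn1 and -0.40 to 0.022 for Gstp1.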
